A study of Mus musculus with 4 samples.

Results

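The genes described are 9 that leukocytes use to hold on to vessel walls and to matrix: the integrin chains Itgb2, Itgam, Itgal and Itgax, the Itgb2-like gene Itgb2l, the selectin ligand Selplg, the immunoglobulin-family ligands Icam1 and Vcam1, and the hyaluronan receptor Cd44. They were matched by gene symbol from the array's annotation, among 18193 genes that had a probe set of their own, and all 9 were found, on 17 of 45101 probe sets. These genes and the lists below were chosen with earlier results of these data known. Their counts and medians beside those of all genes are therefore descriptions, not independent support. Each gene is represented by its probe set of highest mean signal. By the labels, the 4 samples are bone marrow-derived cells that had migrated to fibrotic liver of C57BL/6 mice, and the tissue is given as liver. Both groups had received 30 injections of carbon tetrachloride, a hepatotoxin that scars the liver, at 1 ml/kg. The 2 G-CSF samples came from mice also given recombinant human granulocyte colony-stimulating factor (G-CSF), a growth factor that raises neutrophil output and moves marrow cells into the blood, at 100 µg/kg over the last 7 days. The 2 PBS samples came from mice given a vehicle of phosphate-buffered saline (PBS) that held 0.1% albumin from mouse serum, over the same days. No transgene and no way of sorting the cells is named in the labels, and the labels do not say whether a sample was 1 mouse or a pool.

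Leukocytes leave the blood in steps. They roll on selectins through sugar-bearing ligands such as P-selectin glycoprotein ligand 1, the product of Selplg. They then stop when their integrins, pairs of an alpha and a beta chain, bind ligands such as ICAM-1 and VCAM-1 on the endothelium, and CD44 binds hyaluronan, which is known to hold neutrophils in liver sinusoids. The beta 2 chain, CD18 from Itgb2, is shared by LFA-1 (alpha chain from Itgal, prominent on lymphocytes), Mac-1 (Itgam, neutrophils and monocytes) and CD11c/CD18 (Itgax, dendritic cells and some macrophages).

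The arrays differed in more than treatment. Transcripts of 16 neutrophil marker genes summed to signals of 317064 and 270649 in the G-CSF samples, against 29351 and 18133 in the PBS samples, and none of the 16 was below background on all arrays. PBS replicate 1 stood apart: its Pearson correlation with any other array was at most 0.844 across 12187 genes, while the G-CSF arrays reached 0.974 with each other. Signals of 13 T cell marker genes summed to 6568 and 4952 with G-CSF, against 53670 in PBS replicate 1 and 4289 in PBS replicate 2. Hepatocyte transcripts were abundant on all 4 arrays, with a median marker signal of 28911 and 24279 with G-CSF and of 11204 and 32028 with PBS. The 3'/5' ratio of the Gapdh control, a measure of RNA integrity, was also higher with G-CSF, at 20.2 and 19.1, against 15.7 and 14.8 with PBS. What part any of these has in the differences below was not tested. In such bulk RNA, more cells of a type and more RNA per cell cannot be told apart.

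Of the 9 genes, 4 were at least 2-fold higher in the G-CSF group than in the PBS group, with no overlap of the samples (Itgb2, Itgb2l, Selplg and Cd44). Itgam was also higher without overlap, but its PBS signals lie below background, so that only a bound of at least 1.42-fold can be given. The groups overlapped for the other 4 genes (Itgal, Itgax, Icam1 and Vcam1). None was lower without overlap. Among all 12187 genes tested, 4.04% were at least 2-fold higher and 1.52% at least 2-fold lower without overlap, and 18.6% were higher and 12.1% lower without overlap whatever the size. The median difference, G-CSF minus PBS after taking log2(signal + 23), was 1.30 over the 9 genes (0.51 with Itgam at its lower bound) and 0.07 over all genes tested. No gene passed the limma test after Benjamini-Hochberg adjustment over all genes (0% higher and 0% lower). At an unadjusted p below 0.05 were 4 of the 8 adhesion genes tested, each higher with G-CSF, beside 3.13% of all genes higher and 0.386% lower. The labels do not say that samples came from separate animals, so these p-values measure only the spread between 2 arrays per group, and the smallest two-sided p of an exact permutation test of 2 against 2 is 0.333.

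**Figure D1:**
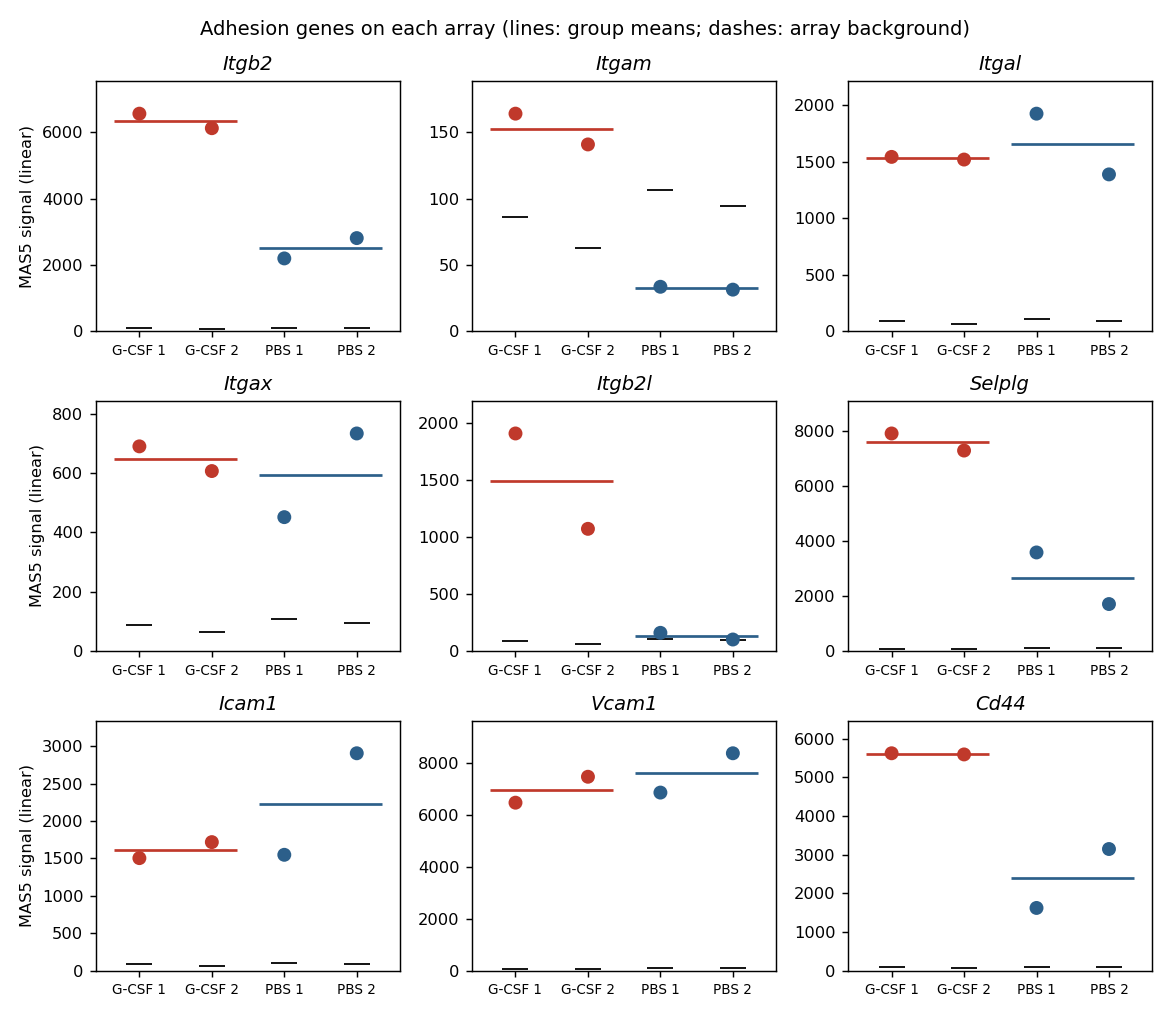
MAS5 signal (linear scale from 0) of each of the 9 genes on the 2 G-CSF arrays (red) and the 2 PBS arrays (blue), with group means as lines and each array's background as a black dash. The G-CSF points lie above both PBS points for Itgb2, Itgam, Itgb2l, Selplg and Cd44, and overlap them for the other 4 genes; the PBS points of Itgam lie below background.

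Itgb2, the shared beta 2 chain, had signals of 6559 and 6121 in the G-CSF samples, against 2195 and 2808 in the PBS samples. Both G-CSF samples thus lay more than 2-fold above either PBS sample, and the means were 6340 ± 310 with G-CSF and 2501 ± 433 with PBS (SD, n = 2 each). The difference was 1.34 ± 0.32 on the log2 scale (SE of the limma fit), a 2.54-fold higher level with an unadjusted p of 0.00855 and an adjusted p of 0.795. The call depended on the PBS arrays. With PBS replicate 1 left out the limma adjusted p was 0.0188 (difference 1.17), and with PBS replicate 2 left out it was 0.00138 (1.52). Such fits take their spread from the G-CSF arrays alone, whose pooled SD over all genes tested was 0.292 on the log2 scale, against 0.818 for the PBS arrays, so this and every adjusted p below with a PBS array left out assumes a smaller spread than the PBS arrays show. Over all 15 alternatives it ran from 0.00138 to 1.00. Without PBS replicate 1, 2.78% of all genes were called higher, and without PBS replicate 2, 22.6%.

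Itgam, the alpha chain of Mac-1 and a marker of neutrophils and monocytes, had signals of 164 and 141 in the G-CSF samples, against 33.5 and 31.3 in the PBS samples. Both PBS values lie below background, here the highest signal on an array among 27 controls whose target was not spiked in (86.4 and 63.0 on the G-CSF arrays and 106 and 94.6 on the PBS arrays), so only a bound can be given, at least 1.42-fold higher with G-CSF. Its mean signal of 92.4 lay just under the filter on low values, 95.0, so it had no test in the fit used throughout. With no filter the limma difference was 1.66 ± 0.37, with an unadjusted p of 0.00614 and an adjusted p of 0.770. Itgam was measured by 1 probe set only, and the size of its difference moved with the pseudocount, from 0.97 at a pseudocount of 92 to 2.20 at a pseudocount of 1.

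Itgal, the alpha chain of LFA-1, had signals of 1545 and 1521 in the G-CSF samples, against 1928 and 1389 in the PBS samples. The G-CSF samples lay between both PBS samples, the higher of which is the array with the T cell transcripts. The difference was −0.09 ± 0.35 (95% interval −0.98 to 0.79, limma adjusted p = 0.992), and it was −0.33 against PBS replicate 1 alone and 0.14 against PBS replicate 2 alone. A dimmer Itgal probe set gave 161 and 82.3 with G-CSF, against 110 and 54.2 with PBS, of which the last is below background, and the groups overlapped there too.

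Itgax, the alpha chain of CD11c/CD18, had signals of 689 and 606 in the G-CSF samples, against 451 and 733 in the PBS samples. The lowest and the highest value were both PBS. The difference was 0.16 ± 0.38 (95% interval −0.80 to 1.13, limma adjusted p = 0.988), and its sign depended on the PBS array, with 0.50 against PBS replicate 1 alone and −0.17 against PBS replicate 2 alone. Itgax and Itgam are neighbours on chromosome 7, with 0 protein-coding genes between them, and Itgal lies on the same chromosome, 35 protein-coding genes away. The 3 alpha chains thus did not share 1 pattern over the arrays.

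Since the alpha chains reach the cell surface only with the beta chain, each was also set against Itgb2 within an array. Relative to its mean over the 4 arrays, the log2 ratio of Itgal over Itgb2 was −0.76 and −0.68 in the G-CSF samples, against 1.13 and 0.31 in the PBS samples. The ratio of Itgax over Itgb2 was −0.55 and −0.63 with G-CSF, against 0.43 and 0.75 with PBS. Both ratios were therefore lower on both G-CSF arrays, with differences of −1.44 and −1.18, that is, Itgb2 differed more than either. The ratio of Itgam over Itgb2 was 0.20 and 0.11 with G-CSF, against 0.05 and −0.36 with PBS, a difference of 0.32 that turned to −0.35 at a pseudocount of 92; both PBS values rest on Itgam signals below background, so nothing is read from this ratio. The exact permutation p was 0.333 for the Itgal and the Itgax ratio, the smallest possible, so neither passed a threshold of 0.05.

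**Figure D2:**
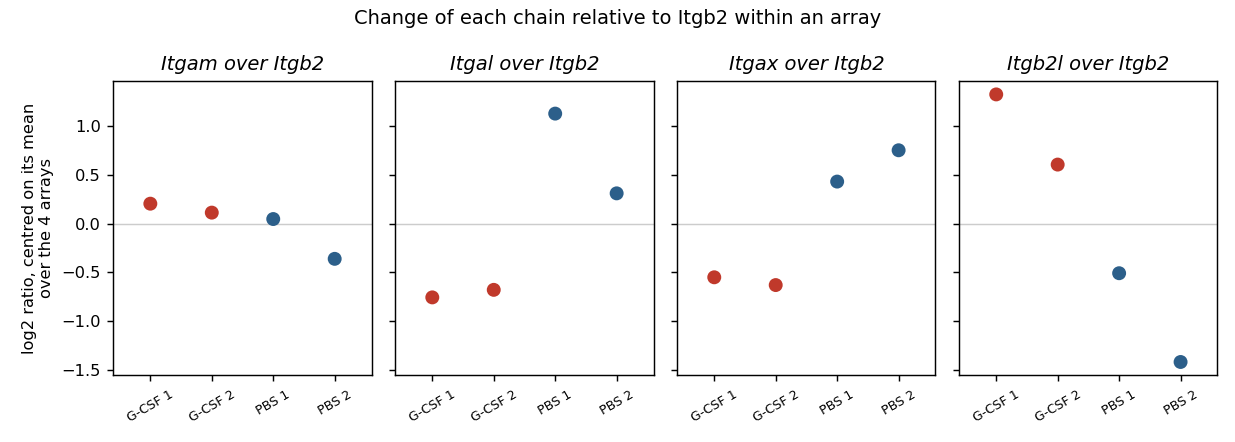
Log2 ratio, on the log2(signal + 23) scale, of Itgam, Itgal, Itgax and Itgb2l over Itgb2 within each array, centred on its mean over the 4 arrays, for G-CSF (red) and PBS (blue). Itgal and Itgax lie below 0 on both G-CSF arrays, Itgb2l lies above 0 on both, and the PBS points of Itgam rest on signals below background.

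Itgb2l encodes a beta 2-like protein known as Pactolus, described in mouse marrow and neutrophils. It differed most of the 8 genes tested, with signals of 1905 and 1070 in the G-CSF samples, against 159 and 101 in the PBS samples. Both PBS values lie little above background (106 and 94.6), so the size of the difference rests on signals near it. The difference was 3.27 ± 0.44 (9.67-fold), with a limma unadjusted p of 0.000610 and an adjusted p of 0.173. Leaving out PBS replicate 1 gave an adjusted p of 0.00523 and leaving out PBS replicate 2 gave 0.00160, and over all 15 alternatives it ran from 0.000183 to 0.991. The ratio of Itgb2l over Itgb2 was 1.32 and 0.60 with G-CSF, against −0.51 and −1.42 with PBS, so Itgb2l differed more than the true beta 2 chain (difference 1.93, exact permutation p = 0.333; −0.57 with all Itgb2l probe sets averaged). Only the chosen probe set shows this. Of the other two Itgb2l probe sets, one gave 71.9 and 76.9 with G-CSF and 67.8 and 80.6 with PBS, and the other, 15.3 and 17.0 with G-CSF, had 44.8 and 63.3 with PBS; of these 8 values, 76.9 alone is above its array's background. With all 3 probe sets averaged the difference was 0.77 (adjusted p = 0.991).

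RefSeq promoters (GRCm38.p6, 250 bases before to 50 after a start site) were given for 5 of the 9 genes. The 4 shown are those of Itgam and Itgb2l, which were higher with G-CSF, and of Itgax and Icam1, which overlapped. They were picked with these values known, and a link between letters and values was not tested. They lie at chr7:128062390-128062689 (plus strand), chr16:96443565-96443864 (minus), chr7:128129300-128129599 (plus) and chr9:21015690-21015989 (plus). Capitals mark matches on either strand to GAGGAA, the core that the myeloid factor PU.1 binds, to TTGCNNAA, a C/EBP-type motif, and to GGNNNTTCC, an NF-kB-type motif.
Itgam: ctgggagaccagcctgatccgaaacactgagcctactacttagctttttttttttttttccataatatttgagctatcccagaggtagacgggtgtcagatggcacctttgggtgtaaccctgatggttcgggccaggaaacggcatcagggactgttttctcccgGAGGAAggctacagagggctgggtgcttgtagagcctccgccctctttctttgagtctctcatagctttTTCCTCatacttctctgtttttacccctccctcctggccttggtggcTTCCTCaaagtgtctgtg
Itgb2l: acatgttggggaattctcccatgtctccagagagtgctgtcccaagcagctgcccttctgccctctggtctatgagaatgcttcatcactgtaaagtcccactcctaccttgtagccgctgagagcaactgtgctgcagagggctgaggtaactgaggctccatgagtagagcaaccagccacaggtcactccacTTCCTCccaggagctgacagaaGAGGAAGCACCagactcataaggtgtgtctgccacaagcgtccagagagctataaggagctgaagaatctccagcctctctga
Itgax: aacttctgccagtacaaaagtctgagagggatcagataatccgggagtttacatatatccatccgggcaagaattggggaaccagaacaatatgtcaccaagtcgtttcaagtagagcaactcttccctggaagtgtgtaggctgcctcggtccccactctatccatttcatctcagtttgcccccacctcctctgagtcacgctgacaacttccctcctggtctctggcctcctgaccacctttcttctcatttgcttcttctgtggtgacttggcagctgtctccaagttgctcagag
Icam1: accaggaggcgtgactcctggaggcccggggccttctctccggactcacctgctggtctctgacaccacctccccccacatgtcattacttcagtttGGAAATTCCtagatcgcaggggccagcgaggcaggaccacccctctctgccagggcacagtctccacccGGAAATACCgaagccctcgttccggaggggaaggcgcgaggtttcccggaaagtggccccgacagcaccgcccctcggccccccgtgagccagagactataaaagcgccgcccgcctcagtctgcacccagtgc
The Itgam window holds 3 matches to GAGGAA, the Itgb2l window 2, the Cd44 window (not shown) 2, and the Itgax and Icam1 windows 0. The Icam1 window holds 2 matches to GGNNNTTCC, GGAAATTCC at 153 bases and GGAAATACC at 84 bases before the start site, and Itgb2l 1, which overlaps a GAGGAA match in the run of 11 capitals. None of the 5 windows holds TTGCNNAA. Of all 32851 promoters of this length, 28.3% hold GAGGAA, 18.5% GGNNNTTCC and 10.8% TTGCNNAA, so a match to GAGGAA is common. A match describes letters and says nothing of binding.

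Selplg, whose product is the main leukocyte ligand of P-selectin, had signals of 7898 and 7278 in the G-CSF samples, against 3578 and 1705 in the PBS samples. Both G-CSF samples were at least 2-fold above the higher PBS sample, PBS replicate 1, and the PBS samples were themselves about as far apart as that. The difference was 1.61 ± 0.45 (3.05-fold; limma unadjusted p = 0.0152, adjusted p = 0.985). It was 1.08 against PBS replicate 1 alone (adjusted p = 0.00381) and 2.14 against PBS replicate 2 alone (adjusted p = 0.00215), and over the 15 alternatives the adjusted p ran from 0.00215 to 1.00.

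Cd44, the hyaluronan receptor, had signals of 5626 and 5596 in the G-CSF samples, against 1626 and 3150 in the PBS samples. A second bright probe set gave 5246 and 5568 with G-CSF and 1638 and 2962 with PBS, so both showed the same separation. The difference was 1.30 ± 0.43 (2.46-fold; limma unadjusted p = 0.0272, adjusted p = 0.988) on the first and 1.29 on the second. It was 1.77 against PBS replicate 1 alone (adjusted p = 0.000835) and 0.83 against PBS replicate 2 alone (adjusted p = 0.0482), with 0.000835 to 1.00 over the 15 alternatives. A dim probe set gave 188 and 287 with G-CSF, against 32.5 and 119 with PBS, of which 32.5 is below background, and the last probe set lay below background on all 4 arrays.

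For both ligands on the endothelial side the groups overlapped. Signals of 12 endothelial marker genes, of which Pecam1 alone was below background on all 4 arrays, summed to 8151 and 9840 with G-CSF, against 3697 in PBS replicate 1 and 10559 in PBS replicate 2. Macrophage and Kupffer cell markers summed to 44693 and 40174 with G-CSF, against 22740 and 59500 in the same PBS order. Stellate cell and fibroblast markers summed to 84751 and 102445 with G-CSF, against 56606 and 85599. Sums of T cell markers and of NK and cytotoxic markers were instead highest in PBS replicate 1. What part any of these has in the values below was not tested. Icam1, the ligand of LFA-1 and Mac-1 that inflammatory cytokines induce, had signals of 1504 and 1718 in the G-CSF samples, against 1549 and 2904 in the PBS samples. Here PBS replicate 2 was the high sample and the other 3 arrays lay close together. The difference was −0.40 ± 0.43 (95% interval −1.48 to 0.69, limma adjusted p = 0.988), and it was 0.05 against PBS replicate 1 alone and −0.84 against PBS replicate 2 alone (adjusted p = 0.0720). Vcam1, the ligand of the alpha 4 beta 1 integrin, had signals of 6480 and 7480 in the G-CSF samples, against 6870 and 8385 in the PBS samples. In order of level the G-CSF and PBS arrays alternated, and the difference was −0.12 ± 0.31 (95% interval −0.91 to 0.66, limma adjusted p = 0.988; 0.02 against PBS replicate 1 alone and −0.27 against PBS replicate 2 alone). The dimmer Vcam1 probe sets gave 586 and 404 with G-CSF, against 459 and 848 with PBS, and in the other case 304 and 560 with G-CSF, against 252 and 459 with PBS, again with overlap.

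**Figure D3:**
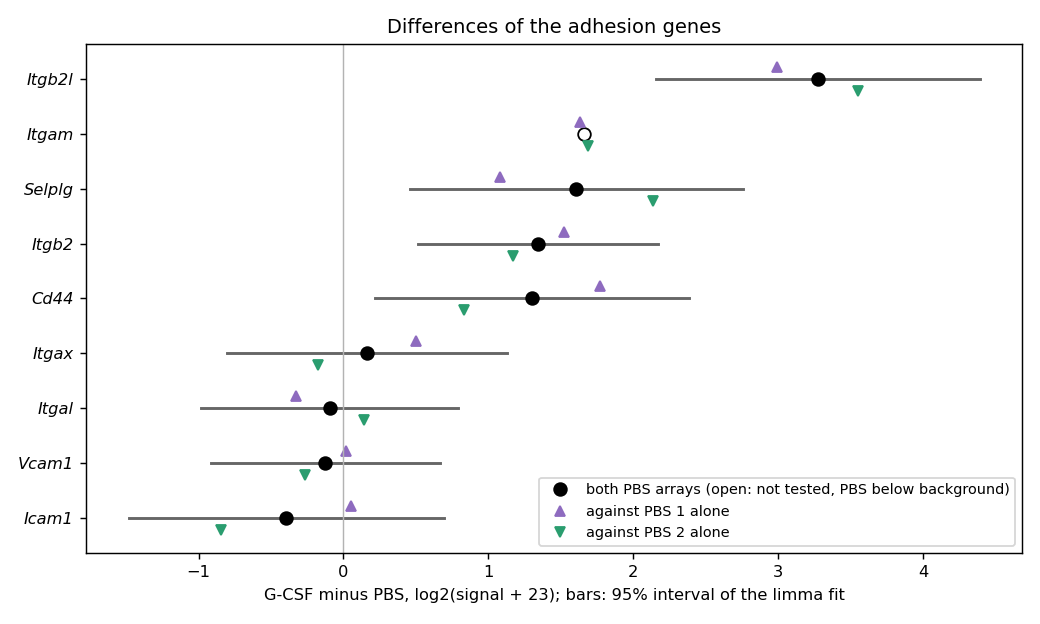
Difference G-CSF minus PBS in log2(signal + 23) for each of the 9 genes (circles; bars are 95% intervals of the limma fit, Itgam open), with the same difference against PBS replicate 1 alone (upward triangles) and PBS replicate 2 alone (downward triangles). Itgb2l lies at 3.27 and Selplg, Itgb2 and Cd44 at 1.30 to 1.61, the open mark of Itgam at 1.66 rests on PBS signals below background (its lower bound is 0.51), and Itgax, Itgal, Vcam1 and Icam1 lie around 0 with triangles on both sides of it.

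The genes around these 9 were described from 7 lists of the adhesion pathway, 103 genes in all, of which 80 were tested. None of the 80 passed the limma test after adjustment; 13 were higher and 1 lower at an unadjusted p below 0.05 (3.13% and 0.386% of all genes). Of the 80, 6 passed the filter on low values through 1 group only (St3gal4, Cd2, Tnfaip6, Ctsg, Elane and Tnf), so the counts and medians that include them are descriptions. Among 15 tested genes that activate integrins or tie them to actin, 11 were higher without overlap (18.6% of all genes were), 0 were lower, and the median difference was 0.63, against 0.07 for all genes. That median was 0.79 when PBS replicate 1 was left out and 0.21 when PBS replicate 2 was. The count of 11 became 9 with median centring, beside 1915 of all 12187 genes. With the mean of all probe sets it became 8, beside 2215 of all 12187 genes. Fgr, a Src-family kinase downstream of beta 2 integrins, had signals of 3714 and 2560 with G-CSF, against 887 and 1340 with PBS (1.48 ± 0.40, limma adjusted p = 0.961). Syk, the kinase that relays integrin signals in neutrophils, had 3569 and 3122 with G-CSF, against 704 and 1920 with PBS (1.50 ± 0.55). With the mean of all probe sets, no gene of this list differed by more than 1.14, so Fgr and Syk differed less there. Lcp1, the leukocyte actin bundler L-plastin, differed by 1.09 ± 0.31, and Vcl, the talin partner vinculin, by 1.01 ± 0.36, both with no overlap.

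Of 14 tested selectin genes and genes that build selectin ligands, 5 were higher and 2 lower without overlap (18.6% and 12.1% of all genes), with a median difference of 0.48. Gcnt1, the core 2 enzyme that builds the branch carrying the selectin-binding sugar on the Selplg product, had signals of 1079 and 921 with G-CSF, against 166 and 321 with PBS. It lay well above both PBS samples, by 2.002 ± 0.42 (4.004-fold; limma unadjusted p = 0.005, adjusted p = 0.567). St3gal4, a sialyltransferase of these sugars, differed by 0.75 ± 0.43 with 1 of 2 PBS arrays above background, St3gal6, another, by 0.66 ± 0.39, and Glg1, an E-selectin ligand, by 0.60 ± 0.33. Selp, the selectin of platelets and endothelium, had 319 and 297 with G-CSF, against 116 and 348 with PBS, and overlapped. Sele, the endothelial selectin, was below background on all 4 arrays, at 29.0 and 3.73 with G-CSF and 4.77 and 41.1 with PBS.

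Other integrin chains had a median difference of 0.31 over 11 tested genes, with 3 higher and 1 lower without overlap, near the shares of all genes (18.6% and 12.1%). Itgae, the alpha chain of an integrin of mucosal T cells, had signals of 235 and 126 with G-CSF, against 909 and 404 with PBS. The highest was on the array with the T cell transcripts, and the difference was −1.69 ± 0.54 (limma adjusted p = 0.988). With specific probe sets only, 3 of the 11 chains were higher and 0 lower without overlap, so the separation of Itgae was not seen there. Itgb3 and Itga2b, the chains of the platelet integrin, had 1039 and 244, and 623 and 214, with G-CSF, against 237 and 142, and 162 and 216, with PBS, and in both G-CSF replicate 1 was the high sample. Itgb7, a partner of Itgae and Itga4, differed by 0.63 ± 0.39. Itga4, whose integrin binds VCAM-1, had 884 and 1170 with G-CSF, against 1460 and 759 with PBS, and overlapped as Vcam1 did.

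Among 11 other adhesion receptors of endothelium and leukocytes, 1 was higher and 1 lower without overlap (18.6% and 12.1% of all genes), with a median of 0.25 that turned to −0.25 when PBS replicate 1 was left out and reached 0.75 when PBS replicate 2 was. The higher was Cd47, a brake on phagocytosis (0.31 ± 0.31), and the lower Cd2, a T cell adhesion receptor, at 40.3 and 78.4 with G-CSF, the first below background, against 1256 in PBS replicate 1 and 107 in PBS replicate 2. F11r and Sirpa, which encode JAM-A and the receptor of CD47, differed by 0.64 ± 0.51 and 0.66 ± 0.53 with overlap. Icam2, a constitutive ligand of LFA-1, had 269 and 387 with G-CSF, against 590 and 309 with PBS. Pecam1, the endothelial CD31, was below background on all 4 arrays, with 45.3 and 6.06 with G-CSF and 56.7 and 14.1 with PBS.

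Of 11 tested genes for hyaluronan and for partners of CD44, 6 were higher and 0 lower without overlap (18.6% and 12.1% of all genes). The median difference was 0.34. With the mean of all probe sets, 3 were higher and 2 lower, beside 2215 and 1618 of all 12187 genes, and the median was 0.19. With specific probe sets only, 4 of 10 were higher and 1 lower, beside 1927 and 1314 of 10406 genes, and the median was 0.22. Vcan, versican, a matrix proteoglycan that binds hyaluronan, had signals of 491 and 670 with G-CSF, against 117 and 153 with PBS (1.93 ± 0.37, limma adjusted p = 0.422). With the mean of all probe sets, no gene of this list differed by more than 1.17, so the Vcan difference was smaller there. Vcan also stands in the monocyte marker list. Tnfaip6, which crosslinks hyaluronan at inflamed sites, had 208 and 264 with G-CSF, against 80.1 and 103 with PBS (1.17 ± 0.40), the first PBS value below background. Msn and Rdx, which tie CD44 to actin, differed by 0.40 ± 0.31 and 0.41 ± 0.28.

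Of 8 proteases known to cut adhesion molecules, 5 were higher and 0 lower without overlap (18.6% and 12.1% of all genes). Ctsg and Elane passed the filter only through the G-CSF arrays, so the count of 5, which includes both, is not read against these shares. For the same reason the median of 2.90 is not set against those of the other lists. The 4 with the smallest p are granule proteases of neutrophils and also stand in the neutrophil marker list. Ctsg, cathepsin G, was at least 81.9-fold higher than a PBS level below background, Prtn3, proteinase 3, differed by 5.57 ± 0.56, Mmp9, gelatinase B, by 4.27 ± 0.49, and Elane, neutrophil elastase, by 4.11 ± 0.47 with 1 of 2 PBS arrays above background. Among 11 tested cytokines and NF-kB genes that act on Icam1 and Vcam1, 3 were higher and 2 lower without overlap, near the shares of all genes (18.6% and 12.1%), with a median of 0.16 that was −0.20 without PBS replicate 1. Il1b, interleukin 1 beta, had 858 and 941 with G-CSF, against 269 and 469 with PBS (1.28 ± 0.39, limma adjusted p = 0.988). Cxcl2, a neutrophil chemokine, differed by 1.45 ± 0.61 with 1 of 2 PBS arrays above background, Nfkbia, the NF-kB inhibitor, by 0.36 ± 0.27, and Irf1, an interferon-response factor, by −0.41 ± 0.31.

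**Figure D4:**
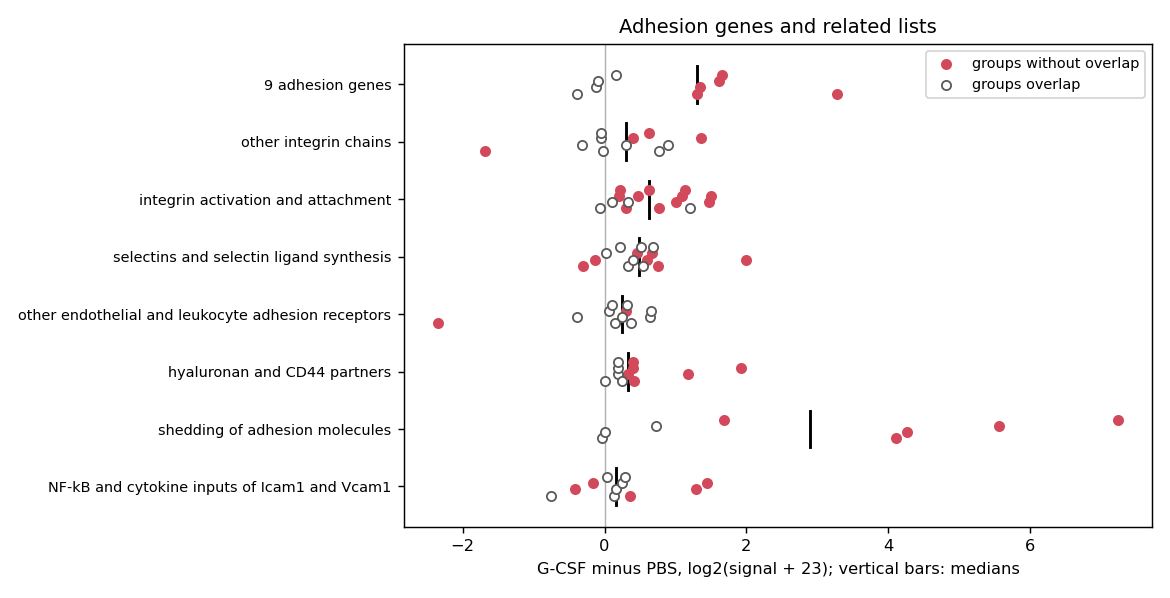
Difference G-CSF minus PBS in log2(signal + 23) of the 9 adhesion genes and of the tested genes of the 7 related lists, 1 point per gene, filled where the groups did not overlap; vertical bars are medians. The medians run from 0.16 (NF-kB and cytokine inputs) to 0.63 (integrin activation) in 6 of the 7 lists, that of the shedding proteases, 2.90, includes 2 genes that passed the filter only through the G-CSF arrays, and that of the 9 adhesion genes is 1.30, or 0.51 with Itgam at its lower bound.

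Likeness was measured as the root-mean-square distance between the log2 profiles of 2 genes over the 4 arrays, each centred on its own mean, and the nearest genes are a description only, since 4 values allow many close matches. Nearest to Itgb2 were Vav3 (0.028), Bcl6 (0.060) and Zyx (0.063), and nearest to Cd44 were Reck (0.012), Med12l (0.047) and Rhbdl3 (0.063). Itgb2l stood farther from any gene, with Nfe2 (0.128), Rdh12 (0.179) and Pi16 (0.263) nearest, and Selplg had Tmem156 (0.065), Gprc5b (0.083) and Ust (0.112). The overlapping genes had Camsap2, Rlim and Riox2 nearest to Itgal (0.014 to 0.016), Phlda3, Cnnm2 and Rilp nearest to Itgax (0.0076 to 0.015), Gigyf2, Etfa and Syap1 nearest to Icam1 (0.036 to 0.044), and Slc30a5, Pigp and Sacm1l nearest to Vcam1 (0.0063 to 0.026).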

How the data were processed

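Each sample was measured on 1 Affymetrix mouse array. The deposited intensity values are MAS5 signals per probe set on a linear scale, per the submitters' processing notes. No MAS5 version is stated. All 4 arrays had a 2% trimmed mean of 500, and no further scaling was done. Of 45101 probe sets, 64 controls, 9160 without a gene and 932 with several were left out, and symbols of the other 34945 were updated by Entrez ID (34741 matched). A pseudocount of 23 was added before log2. Genes whose probe set had a mean signal above 95.0 (12187 genes) were tested with limma 3.58.1 in R 4.3.3 (lmFit, eBayes with trend, two-sided, Benjamini-Hochberg at 0.05). The procedure was tested on simulated data. The number of arrays limits the precision. The text names all 9 genes, up to 4 tested genes of the smallest p per pathway list, and 6 further genes fixed by name, of which 1 is not reported here. Members and lists were chosen with earlier results of these data known. Alternatives were another normalization, pseudocount, filter, variance model, probe set choice, a replicate block and each array left out. Figures were drawn with matplotlib 3.10.9.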

Additional observations from a re-analysis of the deposited data

How the results depend on the processing

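The higher signals of Itgb2, Itgam, Itgb2l, Selplg and Cd44 kept their direction in every alternative run, and the number of arrays, 2 per group, limits all calls. Deviations of same-numbered arrays correlated at −0.038 and those of crossed numbers at 0.038. With 2 arrays per group these are mirror values, so they cannot tell whether same-numbered arrays were paired. With the replicate block, limma called 92 genes and 1 of the 9, Itgb2l (3.27, adjusted p = 0.000183). With specific probe sets only, 11 genes were called and the median of the integrin activation list was 0.77 and that of the shedding list 4.11. With the mean of all probe sets, Itgal was 0.18, the Itgb2l over Itgb2 ratio −0.57, the activation list 0.40 and the selectin list 0.21. A pseudocount of 92 gave 0.97 for Itgam, −0.35 for the Itgam over Itgb2 ratio and 2.48 for the shedding list, and a pseudocount of 1 gave 2.20 for Itgam. With each array left out, genes called ran from 6 (without G-CSF replicate 1) to 4689 (without PBS replicate 2), members called from 0 to 4, members without overlap from 5 to 9 (9 without PBS replicate 1, where 1 PBS array remains) and members at least 2-fold apart from 4 to 5 (Itgam is counted here by its measured values). Without PBS replicate 1, 4649 of all 12187 genes were higher and 4565 lower without overlap. Of the 9 members, 6 were higher and 3 lower there, so the count of 9 is not read as a difference from all genes. With each array left out, the differences ran from 1.17 to 1.52 for Itgb2, 2.86 to 3.68 for Itgb2l, 1.08 to 2.14 for Selplg, 0.83 to 1.77 for Cd44, −0.33 to 0.14 for Itgal, −0.17 to 0.50 for Itgax, −0.84 to 0.053 for Icam1 and −0.27 to 0.019 for Vcam1. List medians ran from 0.21 to 0.79 for integrin activation, −0.25 to 0.75 for other receptors, 2.52 to 2.93 for shedding and −0.20 to 0.56 for cytokine inputs. In each such fit the lone array of a group is assumed to vary like the other group. Why these values differ was not tested, beyond the arrays or probe sets each setting uses. In all, 23 values were classed as moved, 7 as reversed in sign and 9 as stronger, that is, past the adjusted threshold only in the alternative. Settings that kept all 4 arrays gave 10 of the moved, 3 of the reversed and 1 of the stronger values. The other 301 values were classed as unchanged, by a rule for each kind of result. To be classed so, a difference of a tested member had to keep its sign and its side of the threshold, which not all did. List medians and the Itgam difference had to stay within the spread of replicates, and counts had to stay close. Ratios needed only to keep their sign, so the Itgam over Itgb2 ratio of 0.84 at a pseudocount of 1 was classed as unchanged beside 0.32.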

Other observations

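Several leukocyte adhesion genes of the lists, picked here after their values were seen, were highest on PBS replicate 1, the array that stood apart from the others. Spn, the leukocyte sialomucin CD43, had signals of 974 and 863 with G-CSF, against 1993 in PBS replicate 1 and 401 in PBS replicate 2. Hmmr, a hyaluronan-binding protein of dividing cells, had 885 and 1176 with G-CSF, against 2275 in PBS replicate 1 and 339 in PBS replicate 2. Coro1a, the leukocyte actin regulator coronin 1A, had 11873 and 10188 with G-CSF, against 12129 in PBS replicate 1 and 1872 in PBS replicate 2. For Coro1a, PBS replicate 1 lay close to the G-CSF arrays (−0.14) and PBS replicate 2 was the array that departed (2.54). For all 3 genes the PBS arrays lay on both sides of the G-CSF arrays.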
